A study of Mus musculus with 4 samples.

Results

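The genes described here are the collagens, taken as every gene whose array symbol is Col, a number, a and a number, and 7 small leucine-rich proteoglycans, Dcn, Bgn, Aspn, Lum, Fmod, Prelp and Ogn. The rule found 49 genes, 42 collagens and 7 proteoglycans, among 19505 genes with a probe set, and each of the 49 had 1 probe set. They were measured in macrophages sorted from the hearts of wild-type C57BL/6N mice, 15 to 16 weeks old, after transverse aortic constriction (TAC), a narrowing of the aorta that puts a pressure load on the left ventricle. The populations were the Ccrl2, Trem2, CD163 and CD74 macrophages, called here by their sample titles, and each was hybridised once, to a Clariom S mouse array. All of them came from the mixed cells of 6 hearts, every heart had undergone TAC, and no group without surgery is part of these data. The labels put the surgery 8 weeks before sampling in the source names and 1 week before in the growth protocol. They also give CD9 in the source name of the library titled CD74, and Lyve1 in the growth protocol where the titles have CD163. With 1 library per population there was no replicate, so no SD, standard error or p-value can be given. Every difference below describes these 4 libraries and has no replicate check.

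Collagens are proteins of 3 chains wound into a triple helix. Types I and III form the stiff fibrils of the cardiac interstitium, type IV the mesh of basement membranes and type VI the beaded filaments around cells, while fibril-associated collagens coat the fibrils. Small leucine-rich proteoglycans are secreted proteins with curved leucine-rich repeats, most of which bind collagen fibrils and set their spacing and width. In the heart, fibroblasts are the main source of both families, and their output grows under pressure load. Macrophages are better known for taking up and degrading collagen than for making it.

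All levels are deposited log2 values, on which 1 unit is a 2-fold difference. A background ceiling was set for each library at the 95th percentile of 1498 chemosensory receptor and keratin-associated protein genes, which macrophages are not known to use. It lay at 5.67 in Ccrl2, 5.51 in Trem2, 6.28 in CD163 and 6.53 in CD74, and 7454, 8144, 4984 and 3621 genes exceeded it in these libraries. Fewer genes could therefore be measured in CD163 and CD74, where the ceiling was higher. A value under its library's ceiling gives only a bound, so folds against it were computed from the ceiling and are written as "at least". No member came near the top of the scale at 19.93, the highest member value being 12.67. The label of macrophages was checked with 11 marker genes. All 11 lay above the ceiling in Ccrl2, Trem2 and CD163 and 8 did in CD74. Csf1r, which encodes the colony-stimulating factor 1 receptor, stood at 19.59 in Ccrl2, 19.19 in Trem2 and 18.60 in CD163, with 9.40 in CD74, and Adgre1 (F4/80) at 14.45, 13.30 and 13.60, with 9.66 in CD74. Ptprc (CD45), carried by all leukocytes, had 17.09 in Ccrl2, 17.96 in Trem2, 13.32 in CD163 and 18.24 in CD74. The CD74 library was thus lowest of the 4 for Csf1r and Adgre1 and highest for Ptprc. For CD74, the name of macrophages is taken from the sample title.

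Of the 49 genes, 25 lay above the ceiling in at least 1 library, 19 of 42 collagens and 6 of 7 proteoglycans. That is 51.0%, beside 47.9% of all genes. In Ccrl2 22 were above the ceiling, 44.9% beside 38.2% of all genes, and in Trem2 23, 46.9% beside 41.8%. In CD163 8 were, 16.3% beside 25.6%, and in CD74 9, 18.4% beside 18.6%. Margins of 2.81 log2 units or more over a library's own ceiling were found for 6 genes. These were the proteoglycans Dcn, Bgn, Lum and Ogn and the collagen gene Col3a1, each brightest in Ccrl2 or Trem2, and Col16a1, brightest in CD163. At the other end, 5 genes exceeded a ceiling by under 0.5 log2 units. Just inside were Col6a5, with a margin of 0.15, Prelp with 0.26 and Col17a1 with 0.29. Just outside were Col22a1 at 0.06 under its nearest ceiling, Col27a1 at 0.10 under and Col4a3 at 0.15 under.

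**Figure D1:**
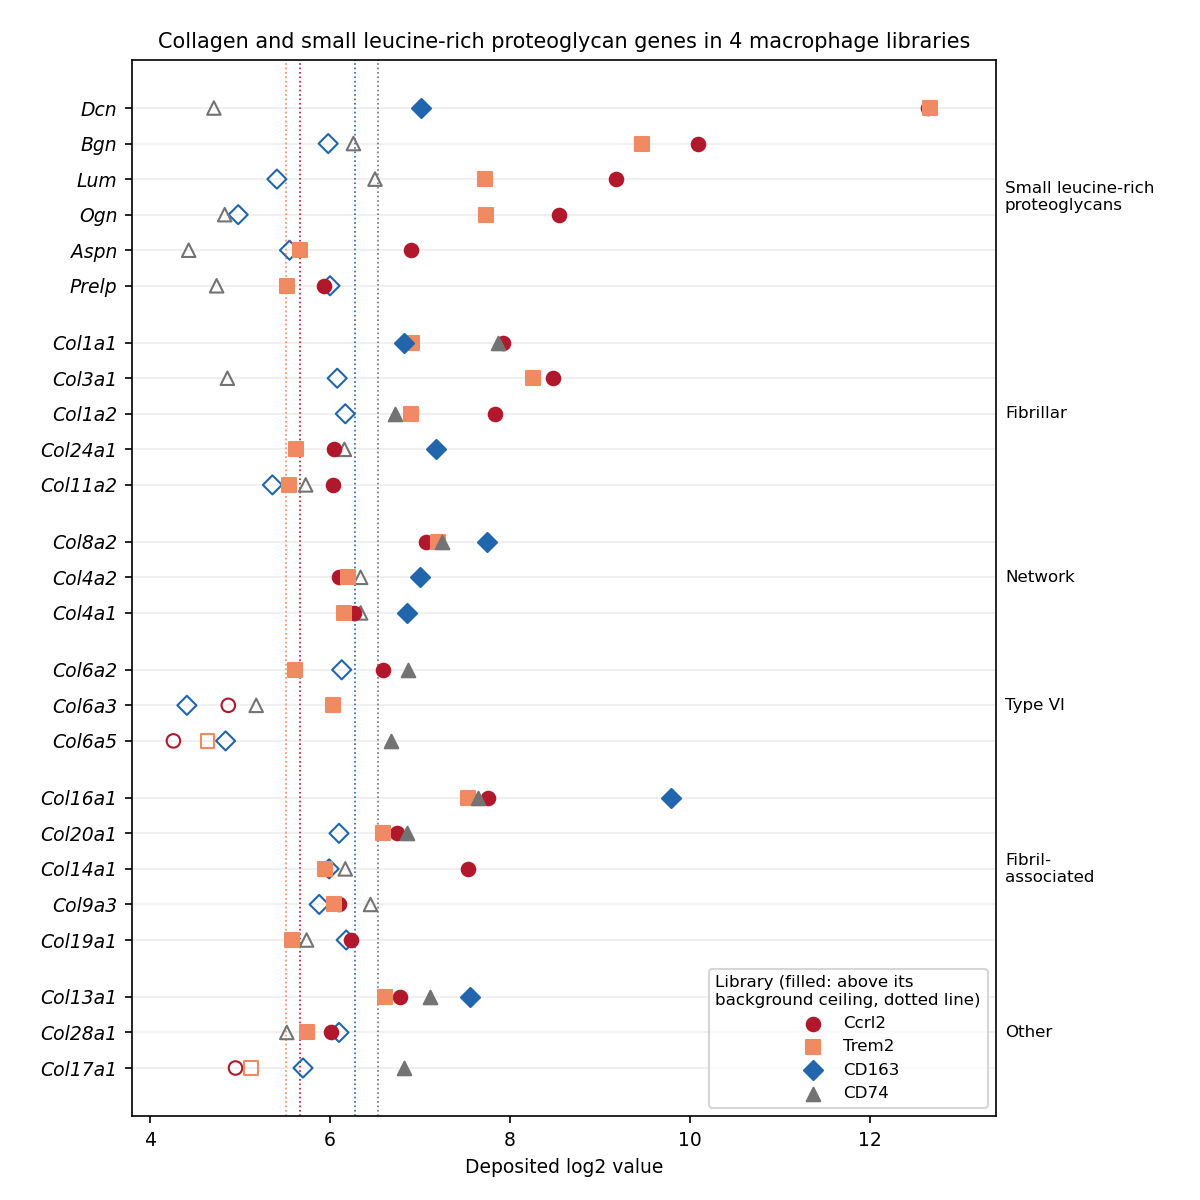
Deposited log2 value of each of the 25 member genes above the background ceiling in at least 1 library, 1 row per gene, grouped by family. Each symbol is 1 library, filled where it lies above that library's ceiling (dotted line of the same colour). Dcn had 12.65 in Ccrl2 and 12.67 in Trem2, against 7.01 in CD163 and 4.71 in CD74, and Col16a1 stood apart in CD163 at 9.79.

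Dcn encodes decorin, a proteoglycan that binds fibrillar collagen and transforming growth factor beta. It had 12.65 in Ccrl2 and 12.67 in Trem2, against 7.01 in CD163 and a value below the ceiling, 4.71, in CD74. The Ccrl2 and Trem2 libraries were alike and both lay far above the other two. The fold was 49.9 for Ccrl2 over CD163 and 50.6 for Trem2 over CD163, and over CD74 it was at least 69.6 for Ccrl2 and at least 70.5 for Trem2. Because these are sorted bulk samples, a change in how many cells hold a transcript and a change in RNA per cell cannot be told apart.

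Bgn, which encodes biglycan, the closest relative of decorin, had 10.09 in Ccrl2 and 9.47 in Trem2, against 5.98 in CD163 and 6.26 in CD74, both below their ceilings. Ccrl2 was thus at least 14.0-fold above CD163 and at least 11.8-fold above CD74, and Trem2 at least 9.13-fold and 7.67-fold above them. Aspn, which encodes asporin, the remaining member of this class, was above the ceiling only in Ccrl2 at 6.90 and Trem2 at 5.67, with 5.55 in CD163 and 4.43 in CD74. Ccrl2 lay 2.35-fold above Trem2 for Aspn, and under 2-fold above the ceilings of CD163 and CD74.

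Lum, which encodes lumican, a keratan sulphate proteoglycan that limits fibril width, had 9.18 in Ccrl2 and 7.72 in Trem2, against 5.41 in CD163 and 6.50 in CD74, both below the ceiling. It separated all libraries with a measured value, with Ccrl2 2.75-fold above Trem2, at least 7.46-fold above CD163 and at least 6.28-fold above CD74. Trem2 was at least 2.71-fold above CD163 and at least 2.28-fold above CD74. Ogn, which encodes osteoglycin (mimecan), had 8.54 in Ccrl2 and 7.73 in Trem2, against 4.98 in CD163 and 4.83 in CD74, both below the ceiling. For Ogn, Ccrl2 was at least 4.79-fold above CD163 and at least 4.03-fold above CD74, and Trem2 at least 2.73-fold and 2.30-fold above them. Prelp stayed near the ceiling, with 5.93 in Ccrl2, 5.52 in Trem2, 6.00 in CD163 and 4.74 in CD74. Fmod, which encodes fibromodulin, was below it in all 4 libraries.

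The 4 proteoglycans Dcn, Bgn, Lum and Ogn therefore had the same split, high in Ccrl2 and Trem2 and low in CD163 and CD74. Quantile normalization of the columns kept this split for Dcn and Bgn in both libraries and for Lum and Ogn in Ccrl2. Under it the Trem2 values of Lum (7.29) and Ogn (7.30) were no longer 2-fold above the CD163 ceiling of 6.40 or the CD74 ceiling of 6.88.

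Among the fibrillar collagens, 5 of 11 exceeded a ceiling. Col3a1, the chain of type III collagen, had 8.48 in Ccrl2 and 8.26 in Trem2, against 6.08 in CD163 and 4.86 in CD74, both below the ceiling. It followed the same split as the proteoglycans, with Ccrl2 at least 4.59-fold above CD163 and at least 3.86-fold above CD74. Trem2 was at least 3.94-fold and 3.32-fold above them, the last of which fell under 2-fold after quantile normalization.

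The chains of type I collagen behaved differently. Col1a1 had 7.92 in Ccrl2, 6.91 in Trem2, 6.82 in CD163 and 7.87 in CD74, so the CD74 library was as high as Ccrl2 and the other two were lower. Ccrl2 was 2.01-fold above Trem2 and 2.14-fold above CD163 for Col1a1, and CD163 was 2.07-fold below CD74. After quantile normalization CD74 was the highest library for Col1a1 at 8.72, with 7.54 in Ccrl2, and neither Ccrl2 call held. Col1a2, the partner chain, had 7.83 in Ccrl2, 6.90 in Trem2, 6.72 in CD74 and 6.17, under the ceiling, in CD163. Ccrl2 was at least 2.93-fold above CD163 and 2.16-fold above CD74 for Col1a2, and 0.93 log2 units above Trem2. After quantile normalization Col1a2 had 7.48 in Ccrl2 and 7.16 in CD74, no longer 2-fold apart. The partner chains thus shared their highest library on the deposited values, and differed in CD74.

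Col24a1, a minor fibrillar chain, was highest in CD163 at 7.18, with 6.05 in Ccrl2, 5.62 in Trem2 and 6.16 in CD74, the last below its ceiling. It was 2.19-fold lower in Ccrl2 and 2.95-fold lower in Trem2 than in CD163. The call in Ccrl2 was lost under median centring and under a ceiling at the 99th percentile. Col11a2 stayed near the ceiling, with 6.03 in Ccrl2, 5.54 in Trem2, 5.36 in CD163 and 5.73 in CD74, and Col2a1, Col5a1, Col5a2, Col5a3, Col11a1 and Col27a1 were under it in every library. The type V chains, which start the assembly of type I fibrils, ranged from 4.16 to 5.75 and gave no measured level in any library.

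The stretches just upstream of 5 of these genes are shown because 4 of them, Bgn, Ogn, Col3a1 and Col1a2, were higher in Ccrl2 than in CD163 and CD74 while Col16a1 was lower in Ccrl2 than in CD163 and alike in Ccrl2 and CD74. Each is the 250 bases before the annotated start, from RefSeq on GRCm38.p6, written 5′ to 3′ on the strand of the gene. Capitals mark the TATA box, searched as TATAAA, the CCAAT box, searched as CCAAT, and the GC box, searched as GGGCGG, each on both strands.
Bgn, chrX:73483351-73483600, + strand: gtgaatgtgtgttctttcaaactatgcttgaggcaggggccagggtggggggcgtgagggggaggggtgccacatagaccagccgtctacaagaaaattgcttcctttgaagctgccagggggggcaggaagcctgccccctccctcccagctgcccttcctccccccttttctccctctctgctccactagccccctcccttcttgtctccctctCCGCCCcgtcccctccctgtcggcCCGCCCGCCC
Ogn, chr13:49607765-49608014, + strand: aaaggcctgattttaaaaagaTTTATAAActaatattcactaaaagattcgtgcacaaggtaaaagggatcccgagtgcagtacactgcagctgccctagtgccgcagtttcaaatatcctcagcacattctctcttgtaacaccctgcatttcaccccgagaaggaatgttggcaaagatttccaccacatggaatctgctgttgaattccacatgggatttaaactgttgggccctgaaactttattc
Col3a1, chr1:45311288-45311537, + strand: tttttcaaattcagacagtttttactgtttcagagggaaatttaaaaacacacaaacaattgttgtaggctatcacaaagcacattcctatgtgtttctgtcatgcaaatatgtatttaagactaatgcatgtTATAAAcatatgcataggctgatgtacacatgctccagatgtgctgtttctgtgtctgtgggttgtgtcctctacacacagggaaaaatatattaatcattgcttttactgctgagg
Col1a2, chr6:4505368-4505617, + strand: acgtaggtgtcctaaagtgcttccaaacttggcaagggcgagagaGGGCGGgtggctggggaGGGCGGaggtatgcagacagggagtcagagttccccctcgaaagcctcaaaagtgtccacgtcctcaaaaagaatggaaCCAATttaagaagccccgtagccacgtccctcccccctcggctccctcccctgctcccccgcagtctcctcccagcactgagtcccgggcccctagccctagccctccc
Col16a1, chr4:130047590-130047839, + strand: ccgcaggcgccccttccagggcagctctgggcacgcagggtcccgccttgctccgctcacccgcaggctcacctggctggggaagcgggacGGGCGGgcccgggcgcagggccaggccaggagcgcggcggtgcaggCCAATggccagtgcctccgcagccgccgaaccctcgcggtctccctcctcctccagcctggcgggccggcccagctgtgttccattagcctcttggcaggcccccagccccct
In these windows Bgn held 3 matches to the GC box, of which the pair nearest the start overlap, Ogn a TATA match overlapping another on the opposite strand, and Col3a1 a TATA match at position -117. Col1a2 held 1 CCAAT match and 2 GC matches, and Col16a1 1 of each. No one motif was found in all 4 of the genes shown that were higher in Ccrl2. Dcn, Lum and Col14a1, also higher in Ccrl2 than in CD163 and CD74, had no window in the promoter set used. Over the 300 bases from 250 before to 50 after the start, the TATA match was found in 16.7% of 42 windows of 39 members and in 13.6% of all 32851 windows. The CCAAT match was found in 35.7% against 37.4%, and the GC match in 54.8% against 35.7%. A match describes letters and is not a binding site.

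Col16a1 encodes the chain of type XVI collagen, a fibril-associated collagen found near basement membranes and fibrils. It had 7.76 in Ccrl2, 7.53 in Trem2, 9.79 in CD163 and 7.65 in CD74, so 3 libraries were alike and CD163 was high. Col16a1 was 4.08-fold lower in Ccrl2 and 4.79-fold lower in Trem2 than in CD163, and 4.41-fold higher in CD163 than in CD74. It was the only member at least 2-fold above each of the other 3 libraries in CD163, a position held by 0.835% of the 9346 genes above a ceiling. Its values after quantile normalization were 7.42 in Ccrl2, 7.13 in Trem2, 10.13 in CD163 and 8.44 in CD74, so that Ccrl2 and Trem2 were then also over 2-fold below CD74.

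Col14a1, another fibril-associated chain, had 7.53 in Ccrl2 and 5.95 in Trem2, against 5.99 in CD163 and 6.17 in CD74, both below the ceiling. Ccrl2 stood alone for this gene, 2.99-fold above Trem2, at least 2.38-fold above CD163 and at least 2-fold above CD74, the last exactly at the threshold. Col14a1 and Lum were the 2 members at least 2-fold above each of the other 3 libraries in Ccrl2, beside 2.61% of the 9346 genes. None was so in Trem2, beside 3.85% of genes, or in CD74, beside 1.78%. After quantile normalization Col14a1 in Ccrl2 (7.24) was 2-fold above Trem2 (5.88) but not above the CD163 and CD74 ceilings. Col9a3, Col19a1 and Col20a1 varied by 0.76 log2 units or less over the 4 libraries. Col9a1, Col9a2 and Col22a1 were under every ceiling.

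The basement membrane pair Col4a1 and Col4a2, whose chains form 1 trimer, had nearly equal profiles. Col4a1 had 6.27 in Ccrl2, 6.16 in Trem2, 6.86 in CD163 and 6.34 in CD74, the last below its ceiling. Col4a2 had 6.10 in Ccrl2, 6.20 in Trem2, 7.00 in CD163 and 6.34 in CD74, the last again below its ceiling. Both were highest in CD163 by under 1 log2 unit. After quantile normalization Col4a2 had 6.06 in Ccrl2 and 6.09 in Trem2 against 7.24 in CD163, and Col4a1 6.05 in Trem2 against 7.09 in CD163, so these differences then passed 2-fold. The 2 genes are transcribed in opposite directions on chromosome 8, with annotated starts 21 bases apart on GRCm38.p6. Col4a3, Col4a4, Col4a5 and Col4a6 were under every ceiling.

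Col8a2, a short-chain network collagen, had 7.07 in Ccrl2, 7.20 in Trem2, 7.74 in CD163 and 7.24 in CD74. Col13a1, a transmembrane collagen, had 6.78 in Ccrl2, 6.61 in Trem2, 7.56 in CD163 and 7.11 in CD74. Both were above the ceiling in all 4 libraries and highest in CD163, within 1 log2 unit on the deposited values. With Col1a1 and Col16a1 they were the 4 members measured in every library. After quantile normalization Col8a2 and Col13a1 were over 2-fold lower in Ccrl2 and Trem2 than in CD163 and CD74.

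Of type VI collagen, which surrounds cells with beaded filaments, Col6a2 had 6.59 in Ccrl2, 5.61 in Trem2, 6.13, below the ceiling, in CD163 and 6.87 in CD74, and was 2.39-fold lower in Trem2 than in CD74. Col6a3 exceeded a ceiling only in Trem2, at 6.03, and Col6a1 in no library. Col6a5 and the transmembrane collagen Col17a1 exceeded it only in CD74, at 6.68 and 6.82. They were at least 2.01-fold and 2.22-fold lower in Ccrl2 than in CD74, and at least 2.25-fold and 2.48-fold lower in Trem2. Such calls were also made on background genes, 3.60% of which were called lower in Ccrl2 than in CD74 and 4.54% lower in Trem2 than in CD74. Under a ceiling at the 99th percentile Col6a5 and Col17a1 lost these calls, and Col6a2 lost its call in Trem2 against CD74. Col28a1, a collagen of peripheral nerve and skin, was near the ceiling in 2 libraries, with 6.01 in Ccrl2 and 5.75 in Trem2, against 6.10 in CD163 and 5.52 in CD74, both under it. In all, 24 members were under the ceiling in every library, 23 collagens and Fmod. The multiplexins Col15a1 and Col18a1 were among them.

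Counted over the family, the comparison of Ccrl2 with Trem2 had 4 of 23 members compared at least 2-fold higher in Ccrl2, Aspn, Col14a1, Col1a1 and Lum, which is 17.4% beside 5.43% of 8773 genes. None was at least 2-fold lower, beside 7.92% of genes. Over all 49 members, measured or not, the median difference was 0.23 log2 units beside 0 for all 19505 genes. At a 4-fold threshold no member was called, and under quantile normalization Col1a1 dropped out with a difference of 0.92.

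Against CD163, Ccrl2 had 8 of 22 members at least 2-fold higher, Dcn, Bgn, Lum, Ogn, Col3a1, Col1a1, Col1a2 and Col14a1, which is 36.4% beside 28.1% of 7891 genes. Lower in Ccrl2 were Col16a1 and Col24a1, 9.09% beside 5.03%. Trem2 had 5 of 23 higher than CD163, Dcn, Bgn, Lum, Ogn and Col3a1, 21.7% beside 27.6% of 8532 genes, and 2 lower, Col16a1 and Col24a1, 8.70% beside 6.07%. These shares lay on either side of the background. The difference within the family was between its parts: 4 of 6 proteoglycans compared were higher in Ccrl2 and in Trem2 than in CD163, against 4 of 16 collagens in Ccrl2 and 1 of 17 in Trem2. Of the 1498 background genes, 23 were called lower in Ccrl2 than in CD163 and 39 lower in Trem2, and none higher in either. The higher ceiling of CD163 makes a higher call over it harder to reach. Over all 49 members the median difference from CD163 was 0.05 in Ccrl2 and -0.20 in Trem2, beside 0.02 and 0.01 for all genes. Both comparisons share the CD163 library. Under quantile normalization the shares of all genes higher and lower became 11.8% and 11.0% for Ccrl2 over CD163, and 11.8% and 13.1% for Trem2 over CD163, and the median of all genes compared shifted to 0.28 and 0.26, against 0.69 on the deposited values in both. Of the members, 6 were then higher and 5 lower in Ccrl2, and 3 higher and 6 lower in Trem2.

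Against CD74, Ccrl2 had 7 of 24 members at least 2-fold higher, 29.2% beside 32.0% of 7902 genes, and 2 lower, 8.33% beside 7.80%. Trem2 had 5 of 25 higher, 20% beside 32.6% of 8522 genes, and 3 lower, 12% beside 7.62%. CD163 had 1 of 13 higher than CD74, Col16a1, 7.69% beside 19.3% of 5842 genes, and 1 lower, Col1a1, 7.69% beside 9.98%. As a whole the family was therefore not more often higher than CD74 than other genes were. Over all 49 members the median difference from CD74 was 0.10 in Ccrl2, -0.15 in Trem2 and 0.15 in CD163, beside 0.05 for all genes in each. These 3 comparisons share the CD74 library. Under quantile normalization the shares of all genes higher and lower became 14.5% and 17.9% for Ccrl2 over CD74, and 13.0% and 16.0% for Trem2 over CD74. The median of all genes compared then shifted to 0.45 for Ccrl2 and 0.46 for Trem2, against 0.96 and 1.01 on the deposited values. Of the members, 5 were then higher and 6 lower in Ccrl2 than in CD74, and 2 higher and 7 lower in Trem2.

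**Figure D2:**
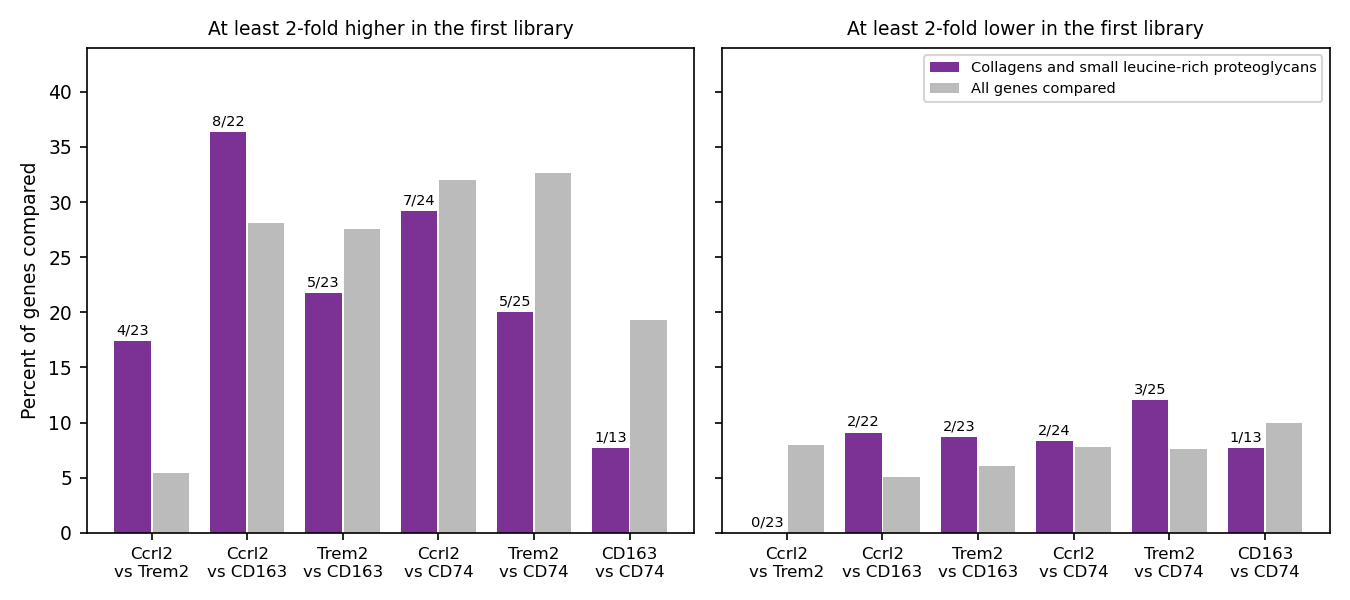
Percent of the genes compared in each pair of libraries that were at least 2-fold higher (left) or lower (right) in the library named first, for the member genes (purple, with counts above the bars) and for all genes (grey). The members' share exceeded that of all genes in Ccrl2 over Trem2 (17.4% beside 5.43%) and lay under it in Trem2 over CD74 (20% beside 32.6%).

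**Figure D3:**
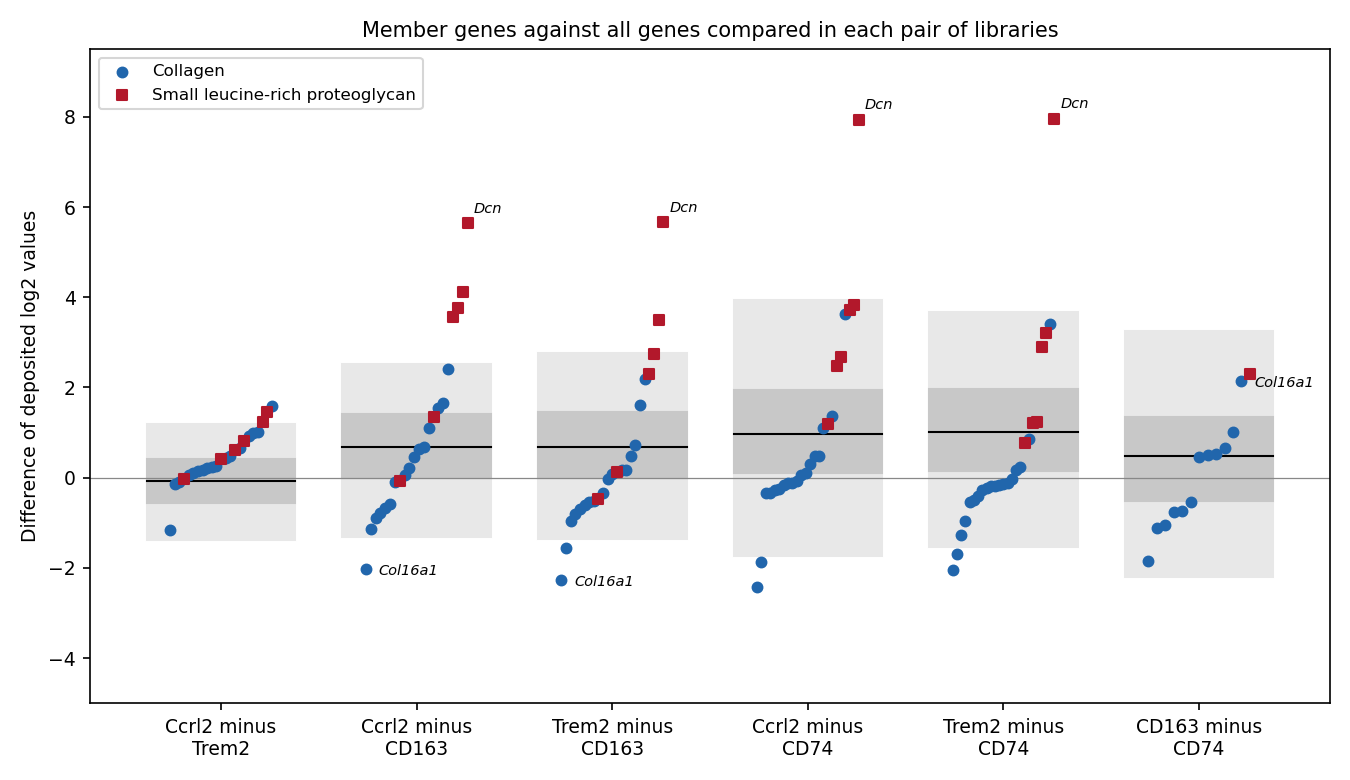
Difference of deposited log2 values for each member compared (points), against all genes compared in that pair (light box 5th to 95th percentile, dark box quartiles, line median). Dcn lay above the light box in the 4 comparisons of Ccrl2 or Trem2 with CD163 or CD74, and Col16a1 lay below it in both comparisons with CD163.

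Several members are neighbours on a chromosome in the GRCm38.p6 gene order. Dcn and Lum lie next to each other on chromosome 10, and both were high in Ccrl2 and Trem2. Aspn and Ogn on chromosome 13 are separated by Omd, another gene of this proteoglycan family, which did not exceed the ceiling in any library. Prelp and Fmod are adjacent on chromosome 1, near or under the ceiling. Col3a1 lies next to Col5a2, which was under every ceiling. Dcn was alike in Ccrl2 and Trem2 while Lum was higher in Ccrl2. Col4a1 and Col4a2 had nearly equal profiles, whereas 1 gene of the pair Col3a1 and Col5a2 was never measured.

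Genes that make collagen were measured alongside. Beside 47.9% of all genes, 14 of 22 genes for folding, hydroxylation and export of collagen with a probe set exceeded a ceiling. Of those compared, 6 of 14 were at least 2-fold higher in Ccrl2 than in CD163 and 11 of 13 than in CD74, and 1 of 14 than in Trem2, with none lower, beside 28.1%, 32.0% and 5.43% of all genes. In Trem2, 4 of 14 were higher than in CD163 and 7 of 14 than in CD74, with none lower, beside 27.6% and 32.6% of all genes. Under quantile normalization the counts for Ccrl2 became 3 higher and 2 lower than CD163, beside 11.8% and 11.0% of all genes. Against CD74 3 were higher in Ccrl2, beside 14.5%. The counts for Trem2 became 2 higher and 2 lower than CD163, beside 11.8% and 13.1%. Against CD74 2 were higher in Trem2, beside 13.0%. Sparc, a collagen-binding secreted glycoprotein, had 14.13 in Ccrl2 and 14.09 in Trem2, against 8.77 in CD163 and 7.60 in CD74, the same split as Dcn. P3h2, a prolyl 3-hydroxylase, had 9.43 in Ccrl2, 7.61 in Trem2, 7.51 in CD163 and 7.33 in CD74. Mia2, a cargo receptor for large secreted proteins, had 10.17 in Ccrl2 and 10.23 in Trem2, against 7.74 in CD163 and 7.78 in CD74. P4ha1, a prolyl 4-hydroxylase subunit that macrophages use outside collagen synthesis too, had 10.90 in Ccrl2, 10.22 in Trem2, 10.84 in CD163 and 7.18 in CD74, and so split the libraries in another way.

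Genes that act on secreted procollagen were mostly not measured. Of 11 with a probe set, 3 exceeded a ceiling, beside 47.9% of all genes. These were the enhancer Pcolce2, its relative Pcolce and the proteinase gene Bmp1. None was called 2-fold apart in any pair. Deposited values of Bmp1 were 1.30 log2 units higher in Ccrl2 than in CD163 and 1.13 higher than in CD74. Those of Pcolce2 were 1.10 higher in Trem2 than in CD74. In each case the dimmer value lay under its ceiling, so the size of the difference was not measured. The crosslinking enzymes Lox, Loxl1, Loxl3 and Loxl4, named after their values were seen, were under the ceiling in every library.

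Some markers of other cells in the heart were higher in Ccrl2 and Trem2, as the proteoglycans and Col3a1 were, and others were not. Of 19 fibroblast markers with a probe set, 12 exceeded a ceiling in at least 1 library, beside 47.9% of all genes. In Ccrl2 8 did, in Trem2 7, in CD163 2 and in CD74 2. Of all genes, 38.2% exceeded the ceiling in Ccrl2, 41.8% in Trem2, 25.6% in CD163 and 18.6% in CD74. The log2 of the summed level of the fibroblast markers was 11.84 in Ccrl2, 11.31 in Trem2, 9.73 in CD163 and 9.96 in CD74. Most of this sum in Ccrl2 and Trem2 was Gsn, the actin-severing protein gelsolin, also made by macrophages. Gsn had 11.13 in Ccrl2 and 10.63 in Trem2, against 6.89 in CD163 and 6.52 in CD74, where it was under the ceiling. Dpt, which encodes the matrix protein dermatopontin, had 8.80 in Ccrl2, 7.91 in Trem2, 6.60 in CD163 and 7.43 in CD74. Postn, which encodes periostin of activated fibroblasts, had 8.13 in Ccrl2 and 7.08 in Trem2, against 5.92 in CD163 and 6.37 in CD74, both below the ceiling. Tcf21, a defining transcription factor of cardiac fibroblasts, was under the ceiling in all 4 libraries, and Pdgfra was not analysed here. Thy1, a surface protein of fibroblasts and T cells named after its values were seen, exceeded a ceiling only in CD74, at 6.71. It was called at least 2-fold lower in both Ccrl2 and Trem2 than in CD74. Fibroblast markers were called higher in Ccrl2 than in CD163 in 3 of 8 cases, 37.5% beside 28.1% of all genes. Against CD74 they were called higher in Ccrl2 in 3 of 9, 33.3% beside 32.0%, and in 1 under quantile normalization, beside 14.5%. In Trem2 they were called higher than in CD163 in 2 of 7 cases, 28.6% beside 27.6%, and in 1 under quantile normalization, beside 11.8%. Against CD74 they were called higher in Trem2 in 1 of 8, 12.5% beside 32.6% of all genes.

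Endothelial and cardiomyocyte markers also differed. The log2 of the summed level of 13 endothelial markers was 15.04 in Ccrl2, 17.13 in Trem2, 12.58 in CD163 and 11.58 in CD74. In the same order 9, 9, 6 and 3 of them exceeded the ceiling, beside 38.2%, 41.8%, 25.6% and 18.6% of all genes. The endothelial sum was nearly all Fabp4, a fatty acid binding protein gene that macrophages express too, with 14.88 in Ccrl2, 17.09 in Trem2, 12.32 in CD163 and 11.27 in CD74. Cdh5, the endothelial cadherin, had 10.86 in Ccrl2, 11.31 in Trem2, 7.47 in CD163 and 6.36 in CD74, where it was under the ceiling. Pecam1 had 7.70 in Ccrl2, 8.66 in Trem2, 6.97 in CD74 and 6.02, under the ceiling, in CD163. Esam, an endothelial adhesion molecule named after its values were seen, ran the other way, with 6.06 in Ccrl2 and 5.78 in Trem2, against 7.27 in CD163 and 6.84 in CD74. The log2 of the summed level of 14 cardiomyocyte markers was 13.78 in Ccrl2, 14.48 in Trem2, 12.55 in CD163 and 11.88 in CD74. Most of it in Ccrl2 and Trem2 was Myl2 and Mb. Tnnt2, cardiac troponin T, had 9.74, 10.36, 8.13 and 8.56 in the same order. Myh6 had 8.01, 6.86, 6.69 and 6.10, the last under the ceiling. Actc1 was alike in Ccrl2 and CD163, with 10.47, 9.81, 10.34 and 9.69. Myl3, named after its values were seen, was highest in CD163 at 6.92. Of 14 mural cell markers, 4 exceeded the ceiling in Ccrl2, 4 in Trem2 and none in CD163 or CD74, beside the same shares of all genes. Myh11 was under the ceiling throughout. Rgs5 had 6.88 in Ccrl2 and 7.06 in Trem2, against 6.26 in CD163 and 4.68 in CD74, both below the ceiling. No epicardial or Schwann cell marker exceeded a ceiling. The part of RNA from such cells in the levels of Dcn, Bgn, Lum, Ogn and Col3a1 was not tested.

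Between Ccrl2 and Trem2 the markers did not all run the same way. Fibroblast markers were at least 2-fold higher in Ccrl2 in 3 of 11 cases and lower in none, beside 5.43% of all genes higher. Under quantile normalization they were higher in none, beside 4.40%. Macrophage markers were higher in 2 of 11, Adgre1 and Aif1, and lower in none, and under quantile normalization 2 were higher and 1 lower. Endothelial markers were higher in none of 9 and lower in 2, and cardiomyocyte markers were higher in 1 of 13 and lower in 3, beside 7.92% of all genes lower. Under quantile normalization 1 endothelial and 2 cardiomyocyte markers were lower, beside 4.46% of all genes.

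**Figure D4:**
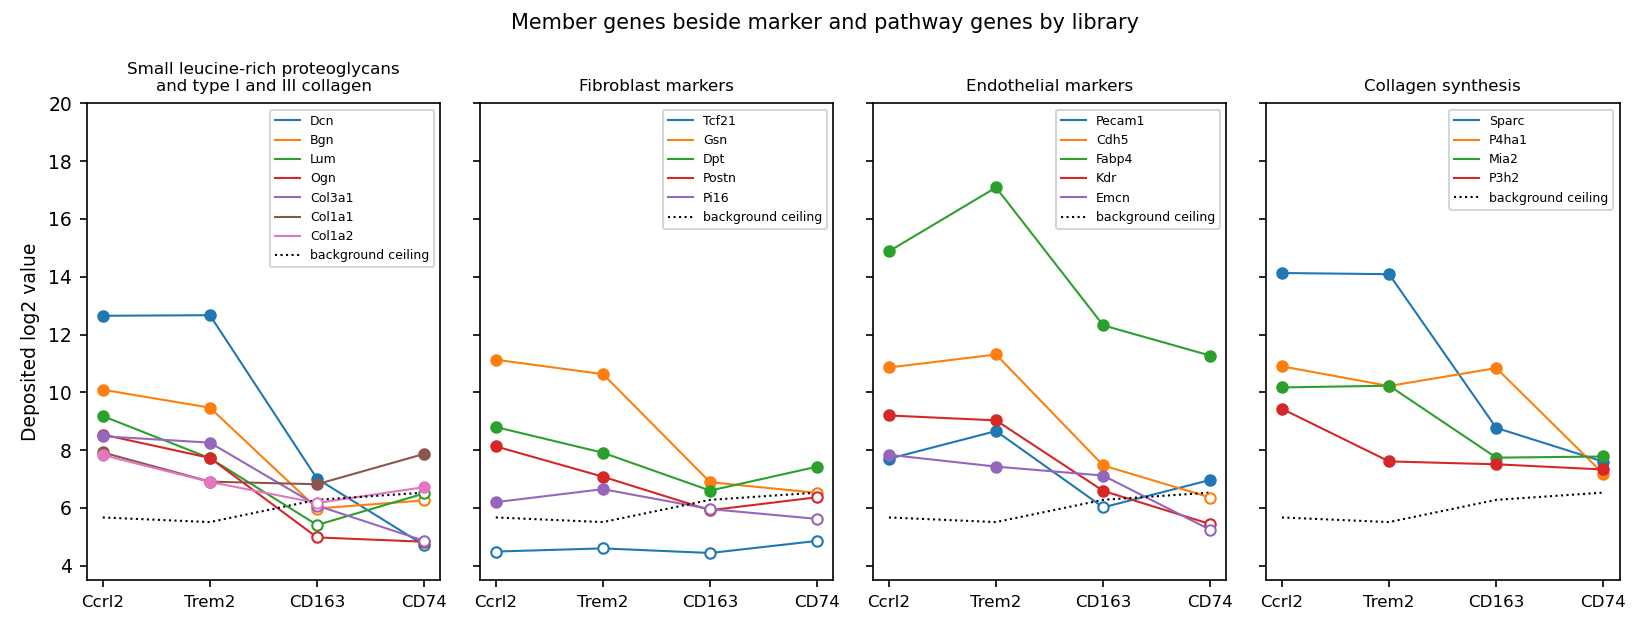
Deposited log2 values in the 4 libraries for 7 member genes and for 5 fibroblast, 5 endothelial and 4 collagen synthesis genes, filled where above the library's background ceiling (dotted). Dcn, Gsn, Cdh5 and Sparc were each higher in Ccrl2 and Trem2 than in CD163 and CD74, while Tcf21 stayed under the ceiling throughout.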

How the data were processed

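The data were 4 Clariom S mouse arrays, 1 per sorted macrophage population, with 28846 probe sets. Per the labels' protocols the authors made the deposited log2 values with robust multichip average (RMA) and GeneSpring. Affymetrix Expression Console comes from the submitters' processing notes. For RMA settings and probe build, the sources used here give nothing. That the scale is log2 rests on the range of the values. Their 95th percentiles were 10.09 in Ccrl2, 10.21 in Trem2, 9.06 in CD163 and 8.45 in CD74, so the columns did not share a distribution.

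A single gene symbol was annotated for 19572 probe sets. Each of 19505 genes was represented by its brightest probe set on average, and all 49 members were found in the GRCm38.p6 gene table by gene number. A gene entered a comparison of 2 libraries when it exceeded its library's background ceiling in at least 1 of them. It was called when the brighter value exceeded its ceiling and lay at least 1 log2 unit above the dimmer value or that library's ceiling, whichever was higher. Medians used the deposited differences. The calling rule was tested on simulated data in which only genes well above the ceilings were moved. Its noise was smaller than the spread of background genes between libraries, so it says nothing on calls near a ceiling. No test between libraries was possible, since each population was 1 library, and having 1 array each limits precision. Alternatives were quantile normalization, median centring, a ceiling at the 99th percentile, no floor at the ceiling, no filter, a 4-fold threshold, the mean over probe sets, each family alone and leaving out a library. Members and gene lists were chosen with earlier results of these data known. Named from the other lists were defining markers and up to 4 genes with the highest mean level. Python 3.11.15, numpy 2.4.6, pandas 2.3.3 and matplotlib 3.10.9 were used.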

Additional observations from a re-analysis of the deposited data

How the results depend on the processing

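Of 40 called differences of single members between 2 libraries, 16 held under all 7 alternatives, among them those of Dcn and Bgn in Ccrl2 and Trem2 against CD163 and CD74, of Lum and Ogn in Ccrl2 against CD163 and CD74, and of Col16a1 in CD163 against each other library, and none changed sign. Of the 40, 30 held under quantile normalization, 38 under median centring, 23 under a ceiling at the 99th percentile and 16 at a 4-fold threshold. The 16 that held under all 7 are those that held at 4-fold. All 40 held without a floor, without a filter and with the mean over probe sets, but these settings do not test the calls. Dropping the floor or the filter can only widen a called difference. Each member has 1 probe set, so averaging left its values unchanged. Quantile normalization gave 5 of 22 members lower in Ccrl2 than CD163, beside 11.0% of all genes compared. It gave 6 of 24 lower in Ccrl2 than CD74, beside 17.9%. In Trem2 it gave 3 of 23 higher and 6 lower than CD163, beside 11.8% and 13.1%. Against CD74 it gave 2 of 25 higher and 7 lower in Trem2, beside 13.0% and 16.0%. It put 1 member above each other library in Ccrl2 and 1 in CD74. Median centring gave 1 of 22 lower in Ccrl2 than CD163, beside 3.51%, and 1 of 24 lower than CD74, beside 5.92%. The stricter ceiling leaves fewer genes to compare. Under it 5 of 16 members were higher and 1 lower in Ccrl2 than CD163, beside 31.5% and 2.97%. Of 14, 0 were lower in Ccrl2 than CD74, beside 5.10%. In Trem2 3 of 17 were higher than CD163, beside 27.2%. Against CD74 3 of 16 were higher and 0 lower in Trem2, beside 30.3% and 3.56%. Of 7, 0 were lower in CD163 than CD74, beside 11.0%. The stricter ceiling put 1 above each other library in Ccrl2. Without a floor 1 of 23 was lower in Ccrl2 than Trem2, beside 11.5%. In CD163 3 of 13 were higher and 3 lower than CD74, beside 34.1% and 17.5%. Above each other library lay 2 in CD163 and 2 in CD74. With no filter, over all 49 members, 1 was lower in Ccrl2 than Trem2, beside 6.03% of all 19505 genes. In Ccrl2 7 were lower than CD163 and 5 lower than CD74, beside 9.54% and 13.1%. In Trem2 6 were lower than CD163 and 9 lower than CD74, beside 10.3% and 12.9%. In CD163 9 were higher and 6 lower than CD74, beside 15.4% and 11.6%. Above each other library lay 4 in CD163 and 4 in CD74. At 4-fold 0 of 23 were higher in Ccrl2 than Trem2, beside 0.46%. In Ccrl2 5 of 22 were higher and 1 lower than CD163, beside 8.38% and 0.41%. Against CD74 4 of 24 were higher and 0 lower in Ccrl2, beside 15.5% and 1.29%. In Trem2 2 of 23 were higher and 1 lower than CD163, beside 9.69% and 0.59%. Against CD74 2 of 25 were higher and 0 lower in Trem2, beside 15.3% and 0.96%. Of 13, 0 were lower in CD163 than CD74, beside 3.22%, and 0 lay above each other library in Ccrl2. For counts above each other library, shares of all genes under the settings above were not computed. Leaving out Ccrl2 put 5 of 25 members above each other library in Trem2, beside 19.3% of 9346 genes. Leaving out Trem2 put 7 there in Ccrl2, beside 17.8% of genes. Leaving out CD163 put 2 there in CD74, beside 4.90%, and leaving out CD74 put 2 there in CD163, beside 3.02%.

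The median over the members compared was 0.41 log2 units for Ccrl2 minus Trem2, 0.55 for Ccrl2 minus CD163, 0.20 for Ccrl2 minus CD74, 0.09 for Trem2 minus CD163, -0.14 for Trem2 minus CD74 and 0.45 for CD163 minus CD74, beside -0.08, 0.69, 0.96, 0.69, 1.01 and 0.47 for all genes compared. Of these, 4 changed sign under at least 1 alternative. Ccrl2 minus CD74 was -0.036 under quantile normalization, -0.09 over collagens only, 3.19 over proteoglycans only and 1.24 with the stricter ceiling. Trem2 minus CD163 was -0.15 under quantile normalization, -0.20 with no filter, -0.35 over collagens only and 2.53 over proteoglycans only. Trem2 minus CD74 was 0.01 under median centring and 2.07 over proteoglycans only, and Ccrl2 minus CD163 was 3.67 over proteoglycans only. CD163 minus CD74 was -0.05 over collagens only. Dcn was the only 1 of the proteoglycans compared there, with a difference of 2.30 and CD74 under its ceiling, a bound of 0.48. With values under a ceiling set to it, the proteoglycan medians were 2.58 for Ccrl2 minus CD163 and 2.33 for Ccrl2 minus CD74. They were 1.445 for Trem2 minus CD163 and 1.195 for Trem2 minus CD74. The cause of the shifts between settings was not tested. No paired analysis was possible because each population was 1 library. Values under a ceiling, 24 members in all libraries, are limited by signal over background.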

Other observations

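Genes that take up or sense collagen were measured in the same libraries. Mrc1, the mannose receptor that also internalises collagen, was at the top of the scale, 19.93, in Ccrl2, Trem2 and CD163 and had 9.46 in CD74. Lair1, an inhibitory collagen receptor of leukocytes, had 9.20 in Ccrl2, 8.64 in Trem2, 7.99 in CD163 and 5.89 in CD74, the last under its ceiling. Itgb1, the beta chain of collagen-binding integrins, had 14.65 in Ccrl2, 13.86 in Trem2, 13.09 in CD163 and 12.16 in CD74. Cd36, a scavenger receptor that also binds collagen, had 12.32 in Ccrl2, 12.56 in Trem2, 10.15 in CD163 and 5.69, under the ceiling, in CD74.

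Of 19 enzymes for the sugar chains of proteoglycans, 11 exceeded a ceiling in at least 1 library, beside 47.9% of all genes. Dse, which converts chondroitin to dermatan sulphate, the chain type of decorin and biglycan in many tissues, had 9.11 in Ccrl2, 8.50 in Trem2, 8.77 in CD163 and 4.84 in CD74, the last under its ceiling. Unlike Dcn and Bgn it was as high in CD163 as in Trem2. Xylt1, a xylosyltransferase that starts such chains, had 8.58 in Ccrl2, 9.49 in Trem2, 7.02 in CD163 and 7.90 in CD74. In each pair of libraries 9 to 11 of these enzymes were compared. Of them 0 to 3 were at least 2-fold higher and 0 to 1 lower in the library named first. The share higher was 0% to 27.3% beside 5.43% to 32.6% of all genes, and lay under that of all genes in every pair. The share lower was 0% to 11.1% beside 5.03% to 9.98%.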
